A study of Mus musculus with 2 samples.

Results

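The epithelial repair genes Ly6a, Ly6e, Clu, Anxa1 and S100a6 were followed through the cells of the mouse small intestine, 5 of the 31053 genes listed. The set was chosen by the measured FMTg to Tg ratios of Ly6a, S100a6 and Clu, so those ratios are a description of the choice, with no test. The spread of the genes over cell types was not used to choose them. Each group is 1 library from 1 C57BL/6j mouse aged 60 days. The Tg mouse is labelled Mdm2+/- Cag-CreERTg and the FMTg mouse Mdm2FM/- Cag-CreERTg, and each was taken 24 hours after tamoxifen, injected once at 6 mg for every 40 g. Both therefore carry 1 Mdm2 minus allele, the CreER transgene and tamoxifen, and they differ by the labels in the other Mdm2 allele. The Cag promoter is active in most cell types, so the change need not be restricted to epithelium, and with 1 mouse a group the genotype, the animal and the library cannot be told apart. No test between the groups exists at this size; the intervals, at 95%, cover counting error alone.

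These genes belong to the programme that intestinal epithelium switches on after injury. When crypt stem cells are lost, surviving cells re-enter a state that resembles fetal epithelium, in which Ly6a (Sca-1) and Anxa1 are raised and Wnt-dependent stem cell genes are low, and rare Clu-positive cells, the revival stem cells, can rebuild the crypt. The transcription factors YAP and TEAD drive much of this state, and interferons induce Ly6a and Ly6e in many cells. The same genes also have lives outside the epithelium: Ly6a and Ly6e mark lymphocytes, Anxa1 and S100a6 are abundant in myeloid cells, and stromal cells make several of them.

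The Tg library held 6270 barcodes and 54013005 unique molecular identifiers (UMIs, 1 per captured transcript), and the FMTg library 6382 barcodes and 49805718 UMIs. Filters kept 2913 and 2675 cells, with median depths of 4938 and 4710 UMIs, and 4 barcodes were kept in both libraries. Epithelial-like cells numbered 602 and 599, immune-like cells 1883 and 1687. Of the epithelial-like cells, 404 Tg and 441 FMTg were enterocyte-like, 121 and 44 goblet-like, 51 and 62 tuft-like, 16 and 15 enteroendocrine-like and 10 and 37 crypt progenitor-like. Enterocyte cluster 4 came to 91.7% from FMTg, macrophage cluster 9 to 84.7% and neutrophil cluster 18 to 88.3% from Tg, and such a cluster may be a library rather than a type. Levels are CPM, the UMIs of a gene scaled to the summed UMIs of that class and library. Mdm2 UMIs numbered 2721 in Tg and 3453 in FMTg cells. Because the reads lie at the 3' end and the altered part of the gene is not given, they check neither genotype.

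Ly6a encodes a small glycolipid-anchored surface protein of the Ly6 family. On GRCm38 it lies at chr15:74994877-74998031 on the minus strand, and Ly6e lies 34971 bases away at chr15:74955051-74959905 on the plus strand. Of 27 genes of the Ly6 and uPAR family, 15 are on this chromosome. Of the 50-base words at the 3' ends of Ly6a transcripts, 9.27% also occur in Ly6c1, Ly6c2, Ly6i or I830127L07Rik, so a small part of its count is uncertain. The same search found 0 shared words for the other members.

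Most Ly6a was not epithelial. In Tg, 197 of 1636 Ly6a UMIs came from epithelial-like cells, and in FMTg 376 of 1505. B-like cells held 590 UMIs in Tg (303 CPM, 279 to 328) and 549 in FMTg (242 CPM, 222 to 263). T or NK-like cells, which were more numerous, held 41 and 57 UMIs. Unnamed clusters 6 and 7, led by Cd8b1 and Il7r and by Lef1, Tcf7 and S1pr1, held 104 and 67 UMIs in Tg and 133 and 106 in FMTg, whereas cluster 0 of cytotoxic T or NK-like cells held 5 UMIs in 830 Tg cells and 1 in 605 FMTg cells. Ly6a therefore separated lymphocyte clusters from each other by more than their counting intervals.

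The highest Ly6a level per UMI was stromal. Fibroblast-like cells, 7 in Tg and 5 in FMTg, had 518 and 165 UMIs (2625 CPM, 2404 to 2861, and 1417 CPM, 1209 to 1651). The leading Tg cell held 344 UMIs at a depth of 144542, and the leading FMTg cell 115 at a depth of 24700. The 344-UMI cell had 802 UMIs of the 7 fibroblast markers and 630 of mesothelial markers. Fibroblast marker UMIs numbered 222 to 802 in 3 of the Tg cells and 88 to 488 in 3 of the FMTg cells, and 0 to 4 in the others, which had at most 2463 UMIs in all. These 12 cells were separated at a clustering resolution of 2, chosen after the data had been seen, because the main clustering joined them with dendritic-like cells.

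Within the epithelium, Ly6a was carried by a few cells. Crypt progenitor-like cells, named from genes such as Olfm4, Ube2c, Birc5 and Cdc20, held 3 Ly6a UMIs in Tg (7.40 CPM, 1.53 to 21.6) and 266 in FMTg (145 CPM, 128 to 163), a log2 ratio of 4.29 (2.73 to 6.58). A UMI was found in 2 of 10 Tg cells and 14 of 37 FMTg cells (37.8%), and the shares expected after thinning every cell to 1000 UMIs were 0.396% (0 to 31.5) and 7.32% (1.37 to 20.9), which overlap. In tuft-like cells, which should lack Ly6a, the shares were 3.92% and 1.61%, and 0.238% and 0.084% after thinning. Median depths were 18158 and 18502 UMIs in tuft-like and 38548 and 50822 in crypt progenitor-like cells. The 4 leading FMTg cells held 84, 48, 47 and 35 UMIs, 80.5% of the class, and the other 10 positive cells held 1 to 11. The intervals of the levels do not overlap, but 23 of the 37 FMTg cells had no Ly6a UMI, as had 8 of the 10 Tg cells.

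In the other epithelial classes the Ly6a ratios were smaller. Goblet-like cells held 161 UMIs in Tg (75.3 CPM, 64.1 to 87.9) and 49 in FMTg (63.0 CPM, 46.6 to 83.3), a log2 ratio of -0.26 (-0.75 to 0.21). It was 0.76 with a mitochondrial limit of 50%, 0.40 with none and -1.53 without the leading cell of each library. Again a few cells carried the sum: the 4 leading Tg cells held 31, 28, 28 and 20 UMIs, and 1 FMTg cell held 33 of 49. These cells were goblet cells by content, with 10779, 13577, 18939, 15255 and 7338 UMIs of the 9 goblet markers. Enterocyte-like cells held 30 UMIs in Tg and 56 in FMTg (2.19 and 5.35 CPM, log2 ratio 1.29, 0.62 to 1.98), and the level intervals did not overlap there either. Of these UMIs 23 and 43 lay in cluster 8, led by Car4, Reg3a and Reg3g, at 4.65 CPM (2.95 to 6.98) in Tg and 19.6 CPM (14.1 to 26.3) in FMTg, a log2 ratio of 2.07 (1.31 to 2.87). A single cell held 26 of the 43 FMTg UMIs of that cluster. The share of enterocyte-like cells with a UMI was 3.47% in Tg and 3.40% in FMTg, and 0.145% and 0.396% after thinning, beside 0.238% and 0.084% in tuft-like cells. At a clustering resolution of 2 the enterocyte ratio was -0.20.

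**Figure D1:**
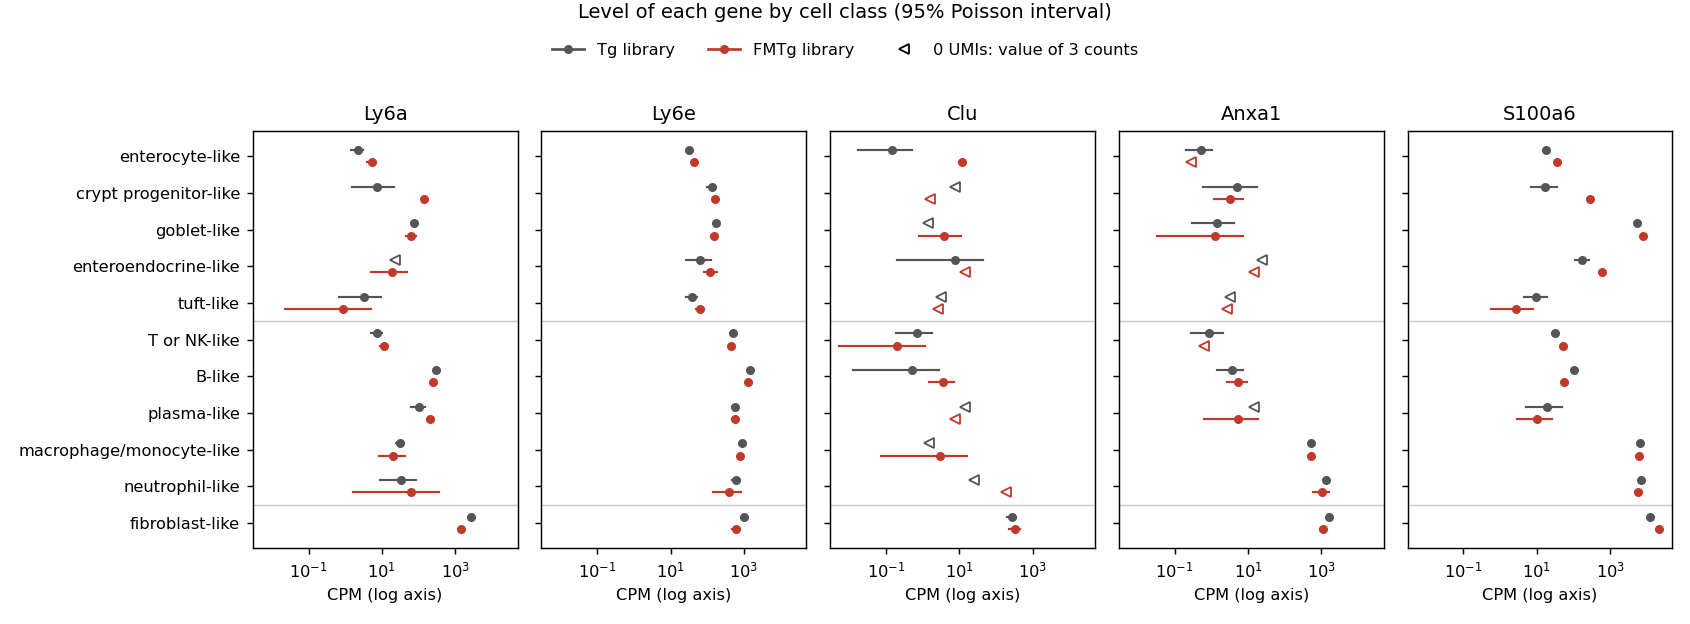
Level of each gene (CPM, log axis) in 10 named classes and in the fibroblast-like cells for the Tg (grey) and FMTg (red) libraries, with 95% Poisson intervals as lines and open triangles at the value of 3 counts where a class held 0 UMIs. Ly6a in FMTg crypt progenitor-like cells (145 CPM) stands above Tg (7.40 CPM), Clu is near its floor outside enterocyte-like and fibroblast-like cells, and Anxa1 is high in myeloid and fibroblast-like classes.

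Across classes, the order of Ly6a levels in FMTg ran from fibroblast-like through dendritic-like (255 CPM, 151 to 403, with all 18 UMIs in 1 cell) and B-like cells, then plasma-like (210 CPM, 167 to 262) and crypt progenitor-like cells, down to enterocyte-like and tuft-like cells. Dendritic-like, B-like and plasma-like cells did not differ beyond their intervals there. In Tg the crypt progenitor-like class stood with T or NK-like cells (7.25 CPM, 5.20 to 9.83), well under goblet-like cells. Over 42 sums of cluster and library, the genes most like Ly6a were Gpr183 (Pearson r of log2(CPM + 1) 0.75), Cmah (0.75), Ly6e (0.73), Itgal (0.73) and Slamf6 (0.72), among them lymphocyte genes such as the adhesion receptor subunit Itgal. These points share libraries and depth, and the values describe likeness over clusters only.

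Ly6e, which also encodes a glycolipid-anchored Ly6 protein, was spread far more widely. B-like cells had 1443 CPM (1390 to 1497) in Tg and 1314 CPM (1268 to 1362) in FMTg, and the 23 Tg and 6 FMTg dendritic-like cells 965 CPM (853 to 1087) and 1545 CPM (1269 to 1864). Levels were lower in macrophage or monocyte-like cells (904 and 784 CPM) and T or NK-like cells (490 and 441 CPM). Epithelial levels were lower in every class of either library, from 32.3 CPM in Tg enterocyte-like cells to 174 CPM in Tg goblet-like cells. The log2 ratio between the libraries was 0.45 (0.25 to 0.64) in enterocyte-like, 0.29 (-0.13 to 0.74) in crypt progenitor-like, -0.21 (-0.52 to 0.10) in goblet-like and 0.77 (0.17 to 1.40) in tuft-like cells. It was 0.96 (-0.22 to 2.32) in enteroendocrine-like cells, from 8 and 26 UMIs, and 1.04 (0.61 to 1.46) in enterocyte cluster 3. In B-like cells it was -0.13 (-0.21 to -0.06) and in T or NK-like cells -0.15 (-0.23 to -0.07).

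Ly6e accompanied Ly6a cell by cell where Ly6a was present. In epithelial-like cells, 32 of the 36 Tg cells and 38 of the 40 FMTg cells with Ly6a also held Ly6e, against 238 of 602 and 221 of 599 cells overall. The FMTg crypt cells with 84 and 35 Ly6a UMIs held 44 and 39 Ly6e UMIs, while those with 48 and 47 held 5 and 12. Ly6a-positive crypt cells are also deep, at 14925 to 108026 UMIs in FMTg, and the part of depth in this overlap was not tested. The genes most like Ly6e over the 42 sums were Msn, Tgfb1, Cmtm7, Itga4 and Fli1 (r 0.92 to 0.93), genes of leukocytes.

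S100a6 encodes calcyclin, a small calcium-binding protein of the S100 family, and lies at chr3:90612882-90624181 on the plus strand, on the chromosome that carries 13 of the 16 S100 genes examined. Anxa1 encodes annexin A1, a calcium-dependent phospholipid-binding protein that leukocytes release to limit inflammation, and lies at chr19:20373428-20390944 on the minus strand. This pair followed each other over clusters more closely than any other pair of members except Ly6a with Ly6e (r 0.69 and 0.73 over 42 sums). Both are among the members with a RefSeq promoter entry (Ly6a, Ly6e and Clu are not), and the 250 bases before their RefSeq starts are printed (build GRCm38.p6), with the bases that match the TEAD motif GGAATG, on either strand, in capitals.
Anxa1, chr19:20390672-20390921, minus strand: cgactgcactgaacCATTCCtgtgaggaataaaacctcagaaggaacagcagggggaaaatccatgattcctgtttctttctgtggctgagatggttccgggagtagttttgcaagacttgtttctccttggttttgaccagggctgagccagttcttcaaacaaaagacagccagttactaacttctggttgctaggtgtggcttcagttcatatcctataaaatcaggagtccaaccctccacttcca
S100a6, chr3:90612644-90612893, plus strand: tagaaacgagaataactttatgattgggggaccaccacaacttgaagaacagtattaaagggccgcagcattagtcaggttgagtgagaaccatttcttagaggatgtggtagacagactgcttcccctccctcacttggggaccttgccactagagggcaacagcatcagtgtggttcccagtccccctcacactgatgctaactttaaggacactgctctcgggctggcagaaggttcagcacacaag
The Anxa1 window holds 1 TEAD match, on the opposite strand at 236 to 231 bases before the RefSeq start, and the S100a6 window holds none. Such a match occurs in 12.6% of 32841 windows of this length. Neither window holds the STAT motif TTCNNNGAA (7.02% of windows), the AP-1 motif TGANTCA (6.75%) or the full p53 consensus (0.0639%), each searched on both strands with overlaps allowed. RefSeq and the GENCODE gene models above place the starts differently, so the Anxa1 window lies inside the GENCODE gene and the S100a6 window ends inside it. A match or its absence here describes these letters only.

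Anxa1 was a myeloid and stromal gene in these libraries. Macrophage or monocyte-like cells held 1027 UMIs in Tg (525 CPM, 493 to 558) and 180 in FMTg (533 CPM, 458 to 616), a log2 ratio of 0.02 (-0.21 to 0.25). Neutrophil-like cells held 159 and 16 UMIs (1301 CPM, 1107 to 1520, and 1018 CPM, 582 to 1654). Fibroblast-like cells held 322 and 125 (1632 and 1074 CPM), of which 251 lay in 1 Tg cell and 106 in 1 FMTg cell. The intervals of both myeloid classes overlap between the libraries, but Tg had 181 macrophage or monocyte-like and 53 neutrophil-like cells and FMTg 41 and 7. Over all cells the log2 ratio was -1.94 (-2.11 to -1.77).

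Epithelial Anxa1 was close to nothing: 12 UMIs in 6 of 602 Tg cells and 7 UMIs in 4 of 599 FMTg cells. Of the 12 Tg UMIs, 6 came from a single enterocyte-like cell that also held 47 S100a6, 6 Spp1 and 18 macrophage marker UMIs. Crypt progenitor-like cells held 2 UMIs in Tg and 6 in FMTg, and the 3 FMTg cells concerned all held Ly6a as well. The level in the epithelium (0.69 CPM, 0.36 to 1.21, and 0.49 CPM, 0.20 to 0.9997) was under that of B-like cells (3.59 and 5.28 CPM). No difference between the libraries was detectable at this depth (log2 ratio -0.52, -2.10 to 0.94). The genes most like Anxa1 were Ifitm6, Lilra6, Pira2, Ifi207 and Sirpb1c (r 0.91 to 0.93), genes of myeloid cells.

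S100a6 marked goblet cells in the epithelium. Goblet-like cells held 11739 UMIs in Tg, with a UMI in 119 of 121 cells (98.3%), and 6296 in FMTg, with a UMI in 44 of 44. The shares expected after thinning to 1000 UMIs were 93.4% and 92.2%, against 1.27% and 0.238% in tuft-like cells (15.7% and 4.84% before thinning). The goblet level was 5491 CPM (5392 to 5591) in Tg and 8096 CPM (7897 to 8298) in FMTg, a log2 ratio of 0.56 (0.52 to 0.60). Its positive cells held a median of 86 and 122 UMIs, and the 4 leading cells held 12.3% and 25.1% of the sums, so the level was spread over the class.

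Outside the epithelium S100a6 was also high in myeloid cells, with 6534 CPM (6421 to 6648) in Tg and 5934 CPM (5678 to 6200) in FMTg macrophage or monocyte-like cells and 6866 and 5919 CPM in neutrophil-like cells. Fibroblast-like cells reached 12602 and 21589 CPM, of which 1553 of 2487 Tg UMIs and 2322 of 2513 FMTg UMIs lay in 1 cell each. Both of these cells carried mesothelial markers, 630 UMIs in the Tg cell and 496 in the FMTg cell, and the FMTg cell had more of these than of fibroblast markers (88). The macrophage ratio depended on which clusters were kept: it was -0.14 (-0.21 to -0.07) over the class and 1.04 without cluster 9, which leaves 21 Tg and 12 FMTg cells. Lymphocytes had lower S100a6 levels, at 31.1 and 51.5 CPM in T or NK-like and 103 and 56.8 CPM in B-like cells. In FMTg 1 cell held 85 of the 253 T or NK-like UMIs and another 90 of the 129 B-like UMIs, whereas in Tg the 176 T or NK-like UMIs were spread over 155 cells. The genes most like S100a6 were Ccl6 (r 0.81), Anxa3 (0.78), Dusp1, 6430548M08Rik and Nupr1 (0.75 to 0.76).

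The pooled epithelial value of S100a6 had the opposite sign to that of its goblet-like and crypt progenitor-like cells. Over all epithelial-like cells it was lower in FMTg, with 12014 Tg and 7310 FMTg UMIs and a log2 ratio of -0.46 (-0.50 to -0.42). Within classes the log2 ratio was 0.56 in goblet-like and 3.99 (2.94 to 5.31) in crypt progenitor-like cells. It was also positive in enterocyte-like (1.07, 0.83 to 1.31) and enteroendocrine-like cells (1.78, 1.12 to 2.50). The part of free goblet RNA in the sums of these classes was not tested. Tuft-like cells, with 9 and 3 UMIs, had a negative value (-1.87, -4.39 to 0.13). FMTg had 44 goblet-like cells and Tg 121, and with the mix of epithelial types held equal, an alternative added after the data had been seen, the pooled ratio was 0.62.

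**Figure D2:**
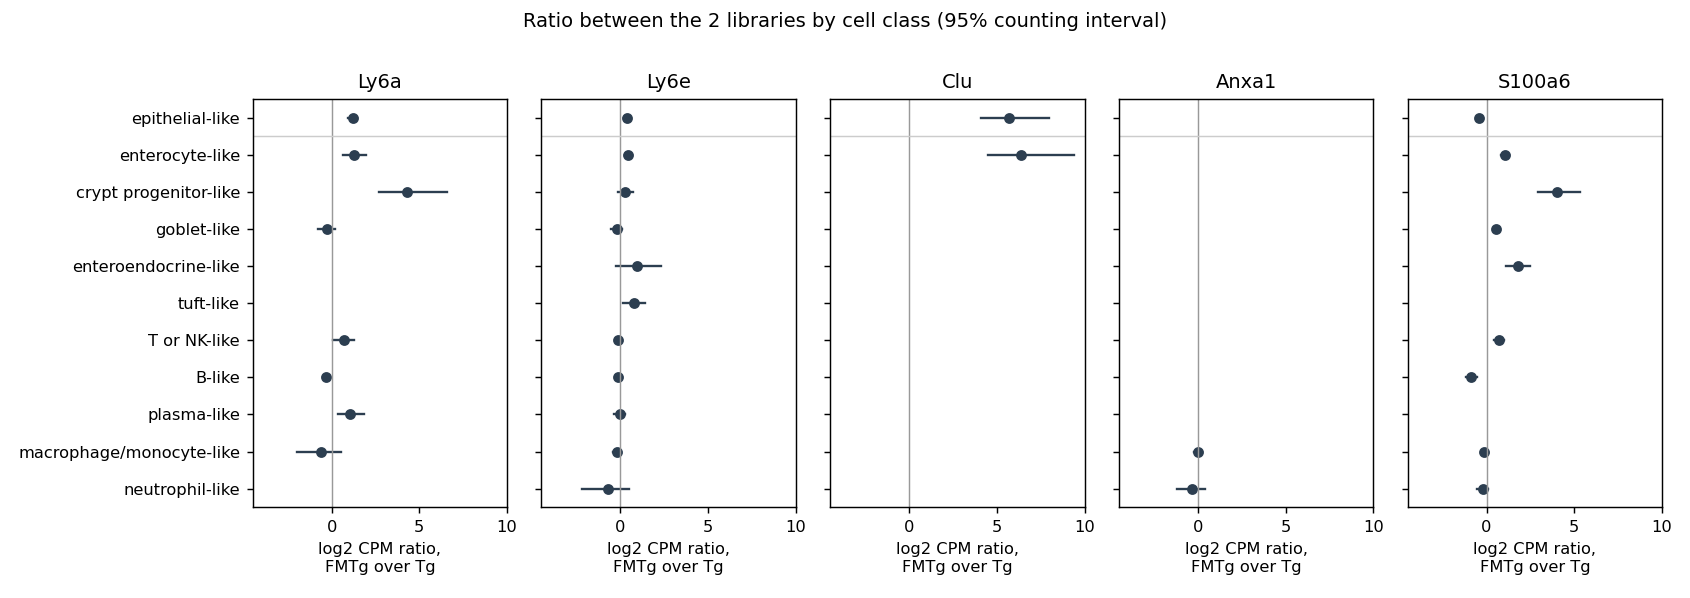
Log2 ratio of CPM, FMTg over Tg, in the epithelial-like cells as a whole and in each class with at least 20 UMIs over both libraries, with 95% counting intervals as lines. S100a6 lies under 0 for the whole epithelium (-0.46) and above 0 in the goblet-like (0.56) and enterocyte-like (1.07) classes, and Ly6a and S100a6 lie farthest right in crypt progenitor-like cells (4.29 and 3.99).

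The S100a6 of enterocytes and that of goblet cells were compared through Tff3, the trefoil peptide of goblet cells. The comparison assumes that free goblet RNA brings both in the goblet ratio, which was not tested. Goblet-like cells held 6.88 S100a6 UMIs per 100 Tff3 UMIs in Tg and 9.72 in FMTg. Enterocyte-like cells held 9.45 and 10.3, and FMTg cluster 4, which alone holds 294 of the 380 FMTg enterocyte UMIs, held 9.74. Other sums varied: cluster 3 held 20.8 in Tg and 2.77 in FMTg, and cluster 11 held 5.63 and 14.3. Tuft-like cells held 3.47 and 2.56, from 9 and 3 S100a6 UMIs. The part of free goblet RNA in the enterocyte sums was not tested, and no change is read from them. Cluster 8 stood apart in FMTg, with 67 S100a6 beside 86 Tff3 UMIs (77.9 per 100), against 49 and 339 (14.5) in Tg. Single FMTg cells departed from the goblet ratio also within cluster 4, where the 3 leading cells held 40, 29 and 22 S100a6 UMIs beside 62, 11 and 5 Tff3 UMIs. The leading cell of cluster 8 held 21 beside 1. In Tg the 2 leading cells held 47 UMIs each. The one in cluster 11 held 1289 of the 2507 Tff3 UMIs of the class. It also held 6219 goblet marker UMIs beside 2640 enterocyte marker UMIs. The one in cluster 3 held 18 macrophage marker UMIs. Without cluster 4 the enterocyte ratio was -0.20, with -1.84 (-2.73 to -1.04) in cluster 3, -2.13 (-4.03 to -0.72) in cluster 11 and 1.62 (1.07 to 2.18) in cluster 8. The Tg sums of clusters 3 and 11 were 88 and 90 UMIs, of which these leading Tg cells held 47 each. Part of the size of each negative ratio therefore came from 1 cell. Enteroendocrine-like cells, at 6.20 and 7.18 S100a6 per 100 Tff3 UMIs, were also near the goblet ratio, with Tff3 at 2781 CPM in Tg and 8237 CPM in FMTg. Single cells varied: the leading FMTg cell held 32 S100a6 beside 2 Tff3 UMIs. The next FMTg cells held 24, 15, 12 and 11 beside 44, 179, 164 and 14. In Tg the leading cells held 8 beside 37 and 8 beside 1. The part of free goblet RNA was not tested here either, and no change is read from the enteroendocrine sums.

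Crypt progenitor-like cells did not share that ratio. They held 505 S100a6 and 420 Tff3 UMIs in FMTg, 120 per 100, and 7 S100a6 UMIs in 10 Tg cells. Levels were 17.3 CPM (6.94 to 35.6) in Tg and 275 CPM (251 to 300) in FMTg. The 4 leading FMTg cells held 183, 97, 76 and 38 UMIs, 78.0% of the class. The cell with 183 also held 339 enteroendocrine and 104 goblet marker UMIs; without the leading cell of each library the ratio was 3.97. The share of cells with a UMI was 5 of 10 in Tg and 21 of 37 in FMTg, and 1.33% and 11.5% after thinning to 1000 UMIs, beside 1.27% and 0.238% in tuft-like cells.

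**Figure D3:**
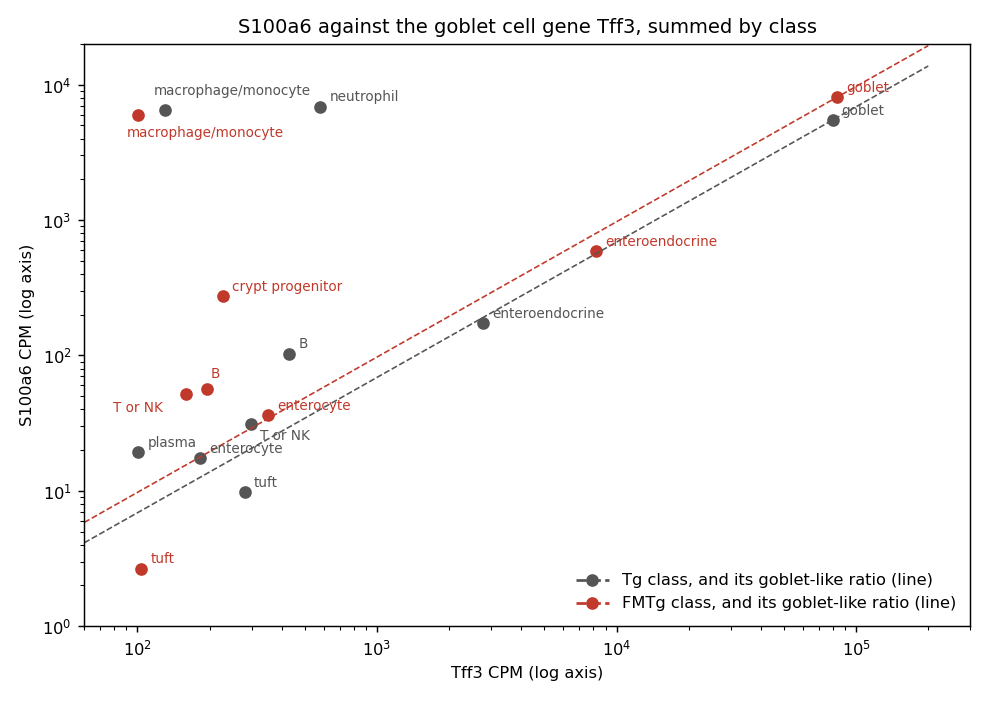
S100a6 CPM against Tff3 CPM (both log axes) summed by class, for Tg (grey) and FMTg (red), with a dashed line at the ratio of each library's goblet-like cells (6.88 and 9.72 S100a6 per 100 Tff3 UMIs). Enterocyte-like sums lie on or near the lines, and FMTg crypt progenitor-like and both macrophage or monocyte-like sums lie far above them.

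High Ly6a and high S100a6 occurred in the same crypt cells. Of 37 FMTg cells, 9 held at least 5 Ly6a UMIs and 12 at least 5 S100a6 UMIs, and 7 held both. None of the 10 Tg cells reached 5 UMIs of either gene. The 7 FMTg cells with both had depths of 47641 to 108026 UMIs, beside class medians of 38548 in Tg and 50822 in FMTg. The part of depth in these counts was not tested. The cells with 84, 48, 47, 35 and 11 Ly6a UMIs held 27, 183, 97, 38 and 76 S100a6 UMIs, and no other crypt cell passed 19. Stem cell genes were uneven among them: the 5 cells held 3, 25, 99, 0 and 30 Olfm4 UMIs, and 0, 0, 5, 0 and 0 of Lgr5. All 5 held the proliferation gene Mki67, at 4 to 20 UMIs, and 0, 45, 15, 8 and 18 UMIs of the p53 target Cdkn1a. Cd44 had a UMI in 9 of the 14 FMTg cells with Ly6a. Markers of other cell types were measured in the same class: the 7 fibroblast markers were at 0 in both libraries, the 10 T or NK markers at 39.5 CPM in Tg and 168 CPM in FMTg, the 8 B markers at 1083 and 762 CPM and the 9 goblet markers at 180 and 651 CPM. A single FMTg cell held 181 of the 309 T or NK and 909 of the 1196 goblet marker UMIs, and it had 0 Ly6a and 5 S100a6 UMIs. The 14 FMTg cells with Ly6a held 0 to 2 T or NK marker UMIs each. The 10 enteroendocrine markers were at 9.86 CPM in Tg and 193 CPM in FMTg. Of their 354 FMTg UMIs, 339 lay in the cell with 48 Ly6a and 183 S100a6 UMIs. That cell also held 104 goblet marker UMIs.

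**Figure D4:**
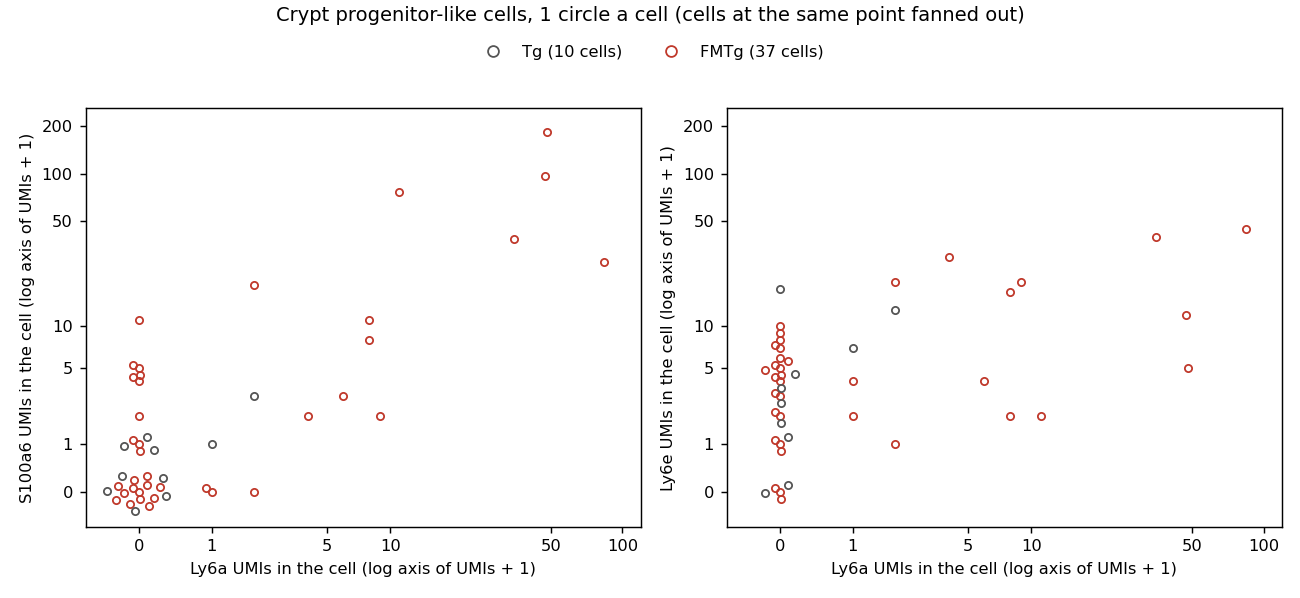
UMIs of S100a6 (left) and Ly6e (right) against UMIs of Ly6a in each crypt progenitor-like cell, on log axes of UMIs + 1, for 10 Tg (grey) and 37 FMTg (red) cells. The cells with 11 to 84 Ly6a UMIs are all FMTg and hold 27 to 183 S100a6 UMIs, while their Ly6e runs from 2 to 44.

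Clu encodes clusterin, a secreted chaperone, and lies at chr14:65968483-65981547 on the plus strand. It was nearly absent from both libraries: 9 of 2913 Tg cells and 17 of 2675 FMTg cells held a UMI. In Tg, 54 of 62 UMIs lay in 2 fibroblast-like cells, with 36 and 18. In FMTg, 38 of 176 lay in 2 fibroblast-like cells, and 125 in 9 enterocyte-like cells. The FMTg cell with 37 Clu UMIs held 88 fibroblast and 496 mesothelial marker UMIs, and the Tg cells with 36 and 18 held 802 and 630, and 222 and 412. The first and the last of these have more mesothelial than fibroblast markers, against their class name. Crypt progenitor-like cells held 0 UMIs in both libraries, so the cells that held Ly6a and S100a6 held no Clu UMI. The Poisson intervals allow up to 9.10 CPM in Tg and 2.01 CPM in FMTg.

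Most Clu UMIs of FMTg enterocyte-like cells lay in a pair of cells. Tg held 2 UMIs in 404 cells and FMTg 125 in 441, a log2 ratio of 6.35 (4.47 to 9.41), and the FMTg cells held 80, 29, 5, 5, 2, 1, 1, 1 and 1. Without the leading cell of each library the ratio was 5.88. The cell with 80 lay in cluster 3 and the cell with 29 in cluster 4, and both were enterocytes by content, with 1823 and 2048 enterocyte marker UMIs. Neither held Ly6a, Anxa1 or S100a6. The cell with 80 Clu UMIs also held 172 of the 174 Spp1 UMIs of FMTg enterocyte-like cells. Spp1 encodes osteopontin, a secreted matrix protein of the same repair programme. Clu was found with Ly6a in 0 cells of the epithelium of either library. The genes most like Clu were Meg3 (r 0.67), Nbl1, Serpinh1, Lrrn4 and Cavin1 (r 0.62 to 0.66), genes of stromal and mesothelial cells. Cluster 21, which holds the fibroblast-like cells, entered these sums only in Tg, with 30 cells. Its 11 FMTg cells were under the minimum of 20, so the stromal side of this likeness is 1 sum.

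Anxa1 had under 20 epithelial UMIs over both libraries. As a whole, 2 of the 4 members with at least 20 epithelial UMIs, Ly6a and Clu, were at least 2-fold higher in FMTg epithelial-like cells and 0 lower, by a rule that chose on such ratios. Of all 11962 genes measured there, 11.3% were at least 2-fold higher and 2.87% lower. In enterocyte-like cells 3 of 4 members were higher (background 6.84% higher and 3.69% lower of 10488 genes), and in crypt progenitor-like cells 2 of 3 (7.4% and 3.32% of 7571 genes). Nothing is read from these counts, since the choice fixed them.

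A wider list of 27 regeneration and fetal-like genes, chosen with earlier results of these data known, was mixed. Of all genes in epithelial-like cells, 11.3% were at least 2-fold higher and 2.87% lower. In the list, 5 of 20 measured genes were higher there and 1 was lower. The list had a median log2 ratio of 0.27, beside 0.23 over all genes. Those higher included Lamb3 (78 and 249 UMIs, log2 ratio 1.93), a laminin chain, Spp1 (15 and 174 UMIs), the hyaluronan receptor Cd44 (1.39) and S100a11 (1.12), and Anxa3 was lower (-1.20). The annexin A2 partner S100a10 stood at 0.62, Anxa2 at 0.10, Klf6 at 0.32, the growth factor Areg at -0.38 and Plaur at -0.45 (-1.03 to 0.11). Nearly all of the Spp1 came from a single cell.

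In enterocyte-like cells 6 of 18 of these genes were higher and 0 lower (median 0.56, all genes 0.06), including S100a11 (751 and 2125 UMIs, 1.89) and Sprr1a, at 0 Tg and 30 FMTg UMIs. Of all genes in the class, 6.84% were at least 2-fold higher and 3.69% lower. Cluster 4 is led by genes that include the villus tip gene Ada, and the villus tip list was at least 2-fold higher for 6 of 8 genes in the class, with 5 of 7 lower villus genes lower. Their part in the repair genes was not tested. In crypt progenitor-like cells 4 of 9 genes of the wider list were higher and 0 lower (median 0.80, all genes -0.03): Anxa3 with 1 and 40 UMIs, Cd44 with 4 and 113, S100a11 with 21 and 356 and Emp1 with 0 and 29. Of all genes in that class, 7.4% were at least 2-fold higher and 3.32% lower.

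The YAP and TEAD target list had a median like that of all genes in epithelial-like cells. Of all genes there, 11.3% were at least 2-fold higher and 2.87% lower, and in crypt progenitor-like cells 7.4% and 3.32%. Of 10 measured genes in epithelial-like cells, Nt5e (166 and 2524 UMIs, 4.19), which is also a villus tip gene, and Asap1 (1.25) were higher, Myof was lower (-1.16), and the classical target Cyr61 stood at -0.54 (-1.28 to 0.17), with medians of 0.22 for the list and 0.23 for all genes. In crypt progenitor-like cells 0 of 3 were higher and 1, Nuak2, lower (8 and 14 UMIs, -1.37, -2.73 to 0.09).

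Relatives of the members were counted beside the 11.3% of all genes at least 2-fold higher and 2.87% lower in epithelial-like cells, and with so few genes their counts are not read as a result. Among the Ly6 and uPAR family, 2 of 9 measured genes were at least 2-fold higher in epithelial-like cells, Ly6a and Ly6d (37 and 119 UMIs, 1.95), whereas Lypd8, a protein of lower villus enterocytes that keeps bacteria from the mucosa, was at -0.93. In the S100 family 2 of 10 were higher, S100a14 (1.64) and S100a11, and 3 lower, S100a8 (-4.33), S100a9 (-5.33) and the calcium-absorption protein S100g (-1.94). S100a8 and S100a9 are neutrophil genes, and 492 of the 511 neutrophil marker UMIs of Tg goblet-like cells lay in 1 cell. In the annexin family 0 of 8 were higher and 1, Anxa3, lower.

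Genes of interferon, which induces Ly6a and Ly6e, and of p53, which Mdm2 restrains, were examined beside the members. Of all genes in enterocyte-like cells, 6.84% were at least 2-fold higher and 3.69% lower. In crypt progenitor-like cells these shares were 7.4% and 3.32%. Interferon-stimulated genes were at least 2-fold higher for 11 of 19 genes in enterocyte-like cells (median 1.11, all genes 0.06). Among them were Rsad2 (128 and 1377 UMIs, 3.81) and Ifit1 (1.47). The member Ly6e stood at 0.45 in that class. In crypt progenitor-like cells 3 of 9 interferon-stimulated genes were higher and 1 lower (median 0.50). p53 targets were higher for 14 of 18 genes in crypt progenitor-like cells (median 1.66, all genes -0.03), among them Phlda3 (2 and 131 UMIs, 3.85) and Cdkn1a (15 and 386, 2.51). The part of interferon or of p53 in the levels of the members was not tested. Of cytokines and prostaglandin synthases upstream of the repair state, 4 of 10 genes reached 20 epithelial UMIs, with Lif at 0.47 (-0.09 to 1.03), Tgfb1 at 0.09 (-0.55 to 0.73) and Il1b at 23 and 1 UMIs.

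TMM scaling lowered every epithelial log2 ratio by 0.24 and size factors by 0.26, which took Ly6e to 0.12 and 0.10 and left the sign of each member. The pooled Ly6a ratio of 1.19 (0.94 to 1.45) became -0.15 with a minimum of 1000 UMIs and -0.14 with no list kept out of the variable genes, settings in which 11 and 12 of the 12 fibroblast-like cells were counted as epithelial-like. Clu, at 5.67, was 1.79 with the minimum of 1000 UMIs. The crypt progenitor-like ratios of Ly6a (2.90 to 5.13 over 13 alternatives) and S100a6 (2.20 to 4.08) kept their sign in the 13 alternatives run for that class.

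**Figure D5:**
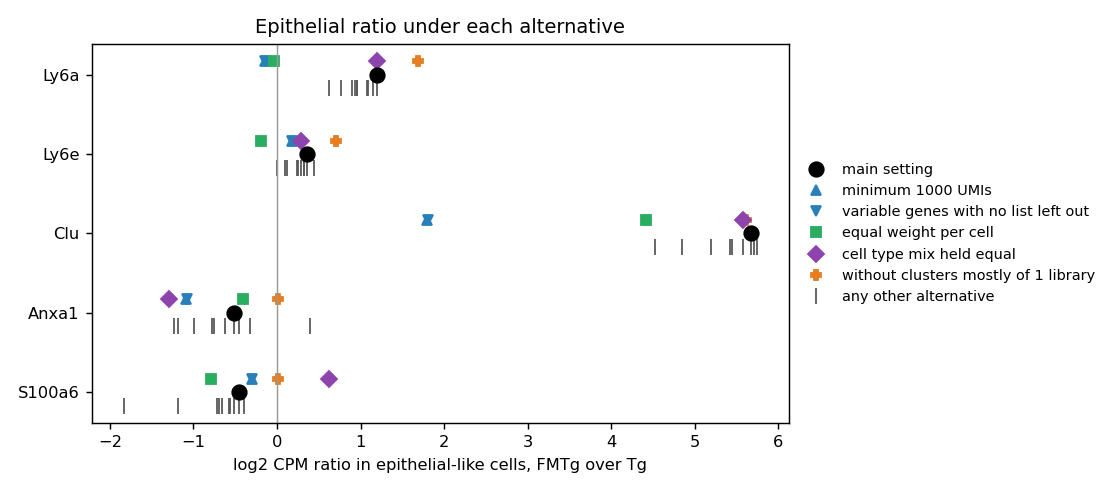
Log2 CPM ratio of each member in epithelial-like cells, FMTg over Tg, in the main setting (black) and under each alternative (coloured symbols for 5 selected alternatives, grey ticks for the others). The lowest S100a6 value, at a mitochondrial limit of 50%, is a grey tick. Ly6a runs from -0.15 to 1.69, Clu from 1.79 to 5.74 and S100a6 from -1.83 to 0.62.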

How the data were processed

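The authors deposited UMI counts, not normalized, for each gene and barcode of 1 Tg and 1 FMTg small intestine, made with the 10x Genomics Chromium 3' protocol, per the labels' protocols. The submitters' processing notes name CASAVA 1.8.1, Cell Ranger 3.0 and mm10; no source used here states the annotation release, and gene positions come from GENCODE on GRCm38. The members and all 14 gene lists were chosen with earlier results of these data known.

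Cells needed 500 UMIs, 300 genes and no more than 25% of UMIs from mitochondrial genes. Depth took out 257 Tg and 210 FMTg barcodes, and mitochondrial content 2946 and 3353. Doublets were scored in scanpy 1.11.5 (scrublet), where the top scores, 0.8% per 1000 barcodes, were dropped (154 Tg and 144 FMTg cells). Both libraries shared 14 barcodes. Clustering used 2000 variable genes without the members and related lists, 30 principal components, 20 neighbours and leidenalg 0.10.2 at resolution 1, giving 26 clusters. Names came from marker lists for 21 types: a cluster took the type whose markers lay closest to their highest level over clusters, given a mean relative level of at least 0.2, at least 3 markers and 50% of them detected in 10% of cells, and Epcam above Ptprc for epithelial names. This naming rule was changed in several steps after the clusters had been seen. A cluster stayed unnamed where another type had more markers among its 10 leading genes, or where it was shallow and led by none of its own markers; 6 of the 26 are unnamed.

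UMIs were summed per class and library and divided by the class total (CPM). With 1 library per group there is no test. Sums have exact Poisson, ratios exact conditional binomial and shares exact Clopper-Pearson intervals at 95%. A gene was measured with at least 20 UMIs over both libraries, and 0 was set to 3 counts for a limit. Thinned shares are the mean over cells of the hypergeometric chance of keeping a UMI; this replaced a single random draw, after 2 draws had given different shares in the small crypt class. The text names the members; from each list up to 4 genes with most UMIs and up to 3 with the highest and lowest epithelial ratio; the 5 genes most correlated with each member over cluster sums of at least 20 cells; and further genes behind small counts, chosen after their values were seen. 1 list gene is not reported here. Ratio calculations were tested on simulated counts. Alternatives changed the filters, doublets, resolution, variable genes, scaling (factors from edgeR 4.0.16 and DESeq2 1.42.0), weighting and leading cells or clusters.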

Additional observations from a re-analysis of the deposited data

Results flagged for a closer look

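Barcodes over the mitochondrial limit with at least 500 UMIs, 3182 in Tg and 3545 in FMTg before the limit of 300 genes, entered no class. They held UMIs of every member, which is why they are listed. Ly6a had 157 UMIs there in Tg and 299 in FMTg, which is 8.30% and 16.1% of all its UMIs in each library. Ly6e had 1517 and 2349 UMIs. Clu had 15 and 104 UMIs, and Anxa1 102 and 44. S100a6 had 2474 and 1640 UMIs.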

How the results depend on the processing

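No paired analysis was possible because each group has 1 library and no replicate number. Values are log2 ratios, FMTg over Tg. Pooled epithelial Ly6a (1.19) was 0.90, 0.62 and 0.76 with mitochondrial limits of 10%, 50% and none, -0.15 with at least 1000 UMIs, -0.14 with no list left out of the variable genes, 0.93 with size factors, -0.039 with equal weight per cell and 1.69 without clusters mostly of 1 library. Ly6e (0.35) was -0.0012 at the 50% limit, 0.18 with at least 1000 UMIs and with no list left out, 0.12 with TMM, 0.095 with size factors, -0.19 with equal weight and 0.70 without 1-library clusters. Clu (5.67) was 1.79 with at least 1000 UMIs and 1.804 with no list left out. S100a6 (-0.46) was -0.65, -1.83 and -1.19 at the 10%, 50% and no limit, -0.29 with at least 1000 UMIs, -0.57 with doublets kept, -0.40 at resolution 2, -0.30 with no list left out, -0.69 with TMM, -0.72 with size factors, -0.56 with abundant genes out of the totals, -0.78 with equal weight, -0.52 without the leading cell, 0.017 without 1-library clusters and 0.62 with the cell type mix held equal, the last added after the data were seen. The count of higher genes in the wider list (5) was 3 at the 10% limit. Signs also turned in enterocyte-like Ly6a (1.29: -0.92 with at least 1000 UMIs, -0.20 at resolution 2, -0.92 with no list left out), Ly6e (0.45: -1.27 at the 10% limit) and S100a6 (1.07: -3.98 at the 10% limit, -0.20 without 1-library clusters), in T or NK-like S100a6 (-0.49 at the 10% limit), and in macrophage or monocyte-like Ly6e (0.23 without 1-library clusters) and S100a6 (0.046 at the 10% limit, 1.04 without 1-library clusters). Ratios whose interval spans 0 turned as well: goblet-like Ly6a (-0.26: 0.76 at the 50% limit, 0.40 with none), goblet-like Ly6e (-0.21: 0.17, 0.48 and 0.19 at the 10%, 50% and no limit) and crypt progenitor-like Ly6e (0.29: -0.22 with no limit). Fibroblast-like cells were counted as epithelial-like with at least 1000 UMIs (11) and with no list left out (12); for the other settings the cause was not tested. Of 83 pooled alternative values, 51 counted as unchanged, and of 278 class ratios 222 did. For a ratio, unchanged means within its counting interval. The 83 include 9 values of the wider-list count, which were judged by fold change and not by a counting interval. Depth limits Clu and Anxa1 most, with 3 and 12 epithelial UMIs in Tg.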
